A study of Mus musculus with 4 samples.

Results

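A set of 10 regulators of alternative splicing were followed by name through the deposited table: the Rbfox genes Rbfox1 and Rbfox2, the muscleblind genes Mbnl1 and Mbnl2, the CELF genes Celf1 and Celf2, the quaking gene Qk, the muscle and heart regulators Rbm20 and Rbm24, and the polypyrimidine tract binding gene Ptbp1. Each of the 10 names matched 1 of the 48432 gene rows, and all 10 had the status OK in both groups. The RNA was polyadenylated RNA of cardiomyocytes, released from hearts of C57BL x FVB mice by Langendorff perfusion, in which enzyme is passed through the coronary vessels. The control carried the genotype labelled MHC, and the other group carried the genotype labelled RbFox2 and is called Rbfox2 OE, for overexpression. Every animal of both groups, controls included, had received doxycycline in the diet for 3 days. The labels do not give the age of the animals, the promoter that drives the transgene or its exon content, and MHC is not spelled out there. The 4 libraries were 2 per group, but the authors' table holds 1 pooled value per group. It is in FPKM, fragments scaled to transcript length and to the mapped fragments of a library, with a lower and an upper bound of unstated level. A range in parentheses after a level gives these bounds. The spread between libraries is therefore unknown, no test between groups was possible, and every value below is the authors' pooled value.

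These proteins decide together which exons a muscle transcript keeps. RBFOX proteins bind the RNA letters GCAUG beside alternative exons, and exons are in general skipped when binding lies upstream and kept when it lies downstream. During heart maturation MBNL proteins gain and CELF proteins lose influence, and in myotonic dystrophy, the disease named in the series title, expanded repeat RNA captures MBNL proteins while CELF1 becomes more abundant. QKI, the product of Qk, and RBM24 promote muscle exons, RBM20 represses exons of titin and other large cardiac transcripts, and PTBP1 represses many muscle and neuronal exons and declines as muscle cells differentiate.

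Rbfox1 and Rbfox2 each have a pair of alternative coding exons in the C-terminal part of the protein, of 40 and 43 bases. The 43-base exon is the one known from muscle, and the 40-base exon is used in other tissues. They are shown because the series concerns a non-muscle RBFOX2 isoform and the gene-level values below add both forms together. The exons were read from the GENCODE M21 transcripts on GRCm38 and are written 5′ to 3′ on the strand of the gene, with capitals at bases that differ between the 2 genes.
Rbfox1 exon of 40 bases, chr16:7363865-7363904, plus strand: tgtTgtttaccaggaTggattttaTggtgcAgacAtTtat
Rbfox2 exon of 40 bases, chr15:77094451-77094490, minus strand: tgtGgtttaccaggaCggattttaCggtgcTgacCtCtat
Rbfox1 exon of 43 bases, chr16:7369801-7369843, plus strand: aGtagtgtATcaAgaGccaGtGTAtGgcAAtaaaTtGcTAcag
Rbfox2 exon of 43 bases, chr15:77091812-77091854, minus strand: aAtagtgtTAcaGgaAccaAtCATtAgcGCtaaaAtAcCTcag

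In either gene 4 annotated transcripts held the exon of 40 bases, 2 held the exon of 43 bases and 0 held both. The lengths leave the same remainder, 1, on division by 3, so either exon keeps the reading frame that follows. Between Rbfox1 and Rbfox2, 34 of 40 bases matched in the shorter exon (85.0%) and 27 of 43 in the longer one (62.8%).

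A coding exon farther upstream is closer between the genes, and it is shown to give the likeness of the paralogues where it is high. It has 93 bases, of which 86 matched (92.5%), again with differences in capitals.
Rbfox1 exon of 93 bases, chr16:7292185-7292277, plus strand: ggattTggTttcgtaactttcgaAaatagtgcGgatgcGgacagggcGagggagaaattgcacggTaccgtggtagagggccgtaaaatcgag
Rbfox2 exon of 93 bases, chr15:77105577-77105669, minus strand: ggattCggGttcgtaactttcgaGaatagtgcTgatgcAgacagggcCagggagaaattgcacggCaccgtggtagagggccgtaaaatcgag

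The longest run of bases shared by any annotated transcripts of Rbfox1 and Rbfox2 was 29 bases. It was 26 bases for Mbnl1 and Mbnl2 and 24 bases for Celf1 and Celf2, and none of these pairs shared a run of 50 bases. The read length is not given in the sources used here.

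The Rbfox genes were the 2 members that stood apart between the groups. Rbfox2, the gene that was overexpressed, stood at 14.7 FPKM in control cells (10.4 to 19.0) against 293 FPKM with Rbfox2 OE (214 to 373), 19.9-fold higher. The nearest bounds of the groups were 11.2-fold apart and the farthest 36.0-fold. This value checks the group labels, since the labelled genotype raises this gene, and it sums the transgene and the endogenous gene if both were counted.

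Rbfox1 stood at 15.7 FPKM in control cells (9.98 to 21.4) against 0.300 FPKM with Rbfox2 OE (0.106 to 0.494). The control value was 52.3-fold the value in Rbfox2 OE. The nearest bounds were 20.2-fold apart and the farthest 201-fold. On the log2 scale, with a pseudocount of 1 FPKM added to each value, the ratio of Rbfox2 OE over control was -3.68. That scale understates the difference of a gene that is low in 1 group: the value was -5.30 with a pseudocount of 0.1 and -1.96 with 5. The genes compared, here and below, are the 11697 whose 2 pooled values average 1 FPKM or more. Rbfox1 is among them through its control level alone, and Rbfox2 is the overexpressed gene, so their ranks by log2 ratio are not given.

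The deposited model of Rbfox1 (ENSMUSG00000008658.15) is shorter than the M21 gene. It covers chr16:6809222-7412479, whereas the M21 gene begins at 5885355, and 5 of the 8 annotated transcripts lie inside it, so the most upstream annotated exons are outside the deposited locus. Both alternative exons shown above lie inside it. The deposited locus of Rbfox2 (ENSMUSG00000033565.16) contains all 15 annotated transcripts, and the other 2 genes listed there were at 0 FPKM in both groups.

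The make-up of the Rbfox family differed accordingly. Part of this was set by the design, since the sum, the shares and the ratio below all include the overexpressed Rbfox2. In the control, Rbfox1 gave 51.6% and Rbfox2 gave 48.4% of their summed level of 30.4 FPKM. In Rbfox2 OE the sum was 293 FPKM, 9.65-fold the control, and Rbfox1 gave 0.102% of it. The level of Rbfox1 over that of Rbfox2 was 1.07 in the control (0.525 to 2.07 from the bounds) and 0.00102 in Rbfox2 OE (0.000286 to 0.00231). A ratio within a group does not depend on how the groups are scaled to each other. The neuronal paralogue Rbfox3 was under 1 FPKM in both groups.

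**Figure D1:**
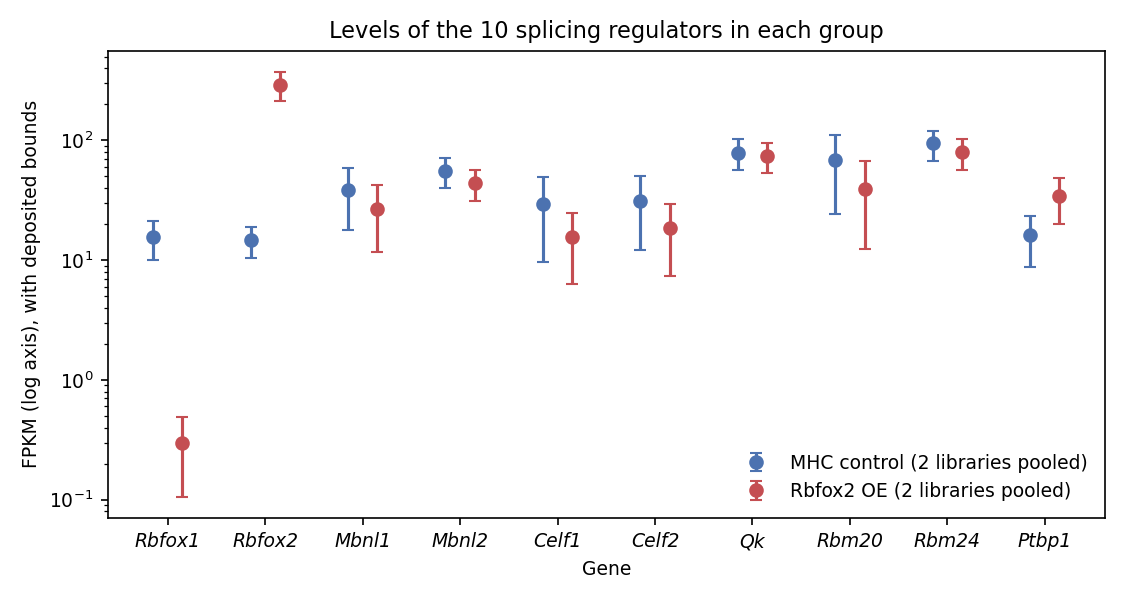
Levels of the 10 genes in FPKM on a log axis, in MHC control (blue) and Rbfox2 OE (red), each point the authors' pooled value of 2 libraries and each bar the deposited bounds. Rbfox1 stands at 0.300 FPKM and Rbfox2 at 293 FPKM in Rbfox2 OE, while for the other 8 genes the bars of the groups overlap.

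The control levels of the 10 genes ran from 14.7 FPKM for Rbfox2 to 94.5 FPKM for Rbm24. FPKM is per length, so levels of different genes can be set side by side. From high to low the control order was Rbm24, Qk, Rbm20, Mbnl2, Mbnl1, Celf2, Celf1, Ptbp1, Rbfox1 and Rbfox2, and each gene's bounds overlapped those of the next. In Rbfox2 OE the order was Rbfox2, Rbm24, Qk, Mbnl2, Rbm20, Ptbp1, Mbnl1, Celf2, Celf1 and Rbfox1. There the bounds were apart at both ends of the order, between Rbfox2 and Rbm24 and between Celf1 and Rbfox1, and overlapped between all other neighbours. Rbfox2 had a higher control level than 65.9% of the genes compared. Its Rbfox2 OE level was higher than that of 97.9%, which is the rank of the gene raised by design. Rbfox1 is among the genes compared through its control level alone, so its rank is given in neither group.

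Of the 10 genes, 3 differed at least 2-fold (a log2 ratio of 1 or more, or -1 or less), against 17.0% of the genes compared. Rbfox2 and Ptbp1 were higher, where 6.97% of all genes compared were 2-fold higher, and Rbfox1 was lower, where 10% were 2-fold lower. The deposited bounds of the groups were separate for 2 of the 10 genes, against 16.0% of the genes compared. Those 2 were Rbfox2, in the direction held by 6.67% of all genes, and Rbfox1, in the direction held by 9.33%. Leaving aside the overexpressed gene, the counts rest on Rbfox1 and Ptbp1 for fold and on Rbfox1 alone for bounds. Rbfox1 in turn passed the filter through its control level alone. Among the 8 genes that are not Rbfox genes, Ptbp1 alone passed 2-fold and all had overlapping bounds. The median log2 ratio was -0.41 over the 10 genes and also over the 8 that are not Rbfox genes, beside -0.06 over all genes compared. Rescaling the groups moved log2 ratios upward, and setting both groups to the same sum of FPKM put the median of all genes at 0.11. The 10 genes moved upward as well, so their median of -0.41 as deposited is not to be set beside 0.11. Of the 2-fold genes, 59.0% were lower in Rbfox2 OE as deposited, 46.5% after rescaling without the mitochondrial and the 10 most abundant genes, and 42.2% at equal sums.

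**Figure D2:**
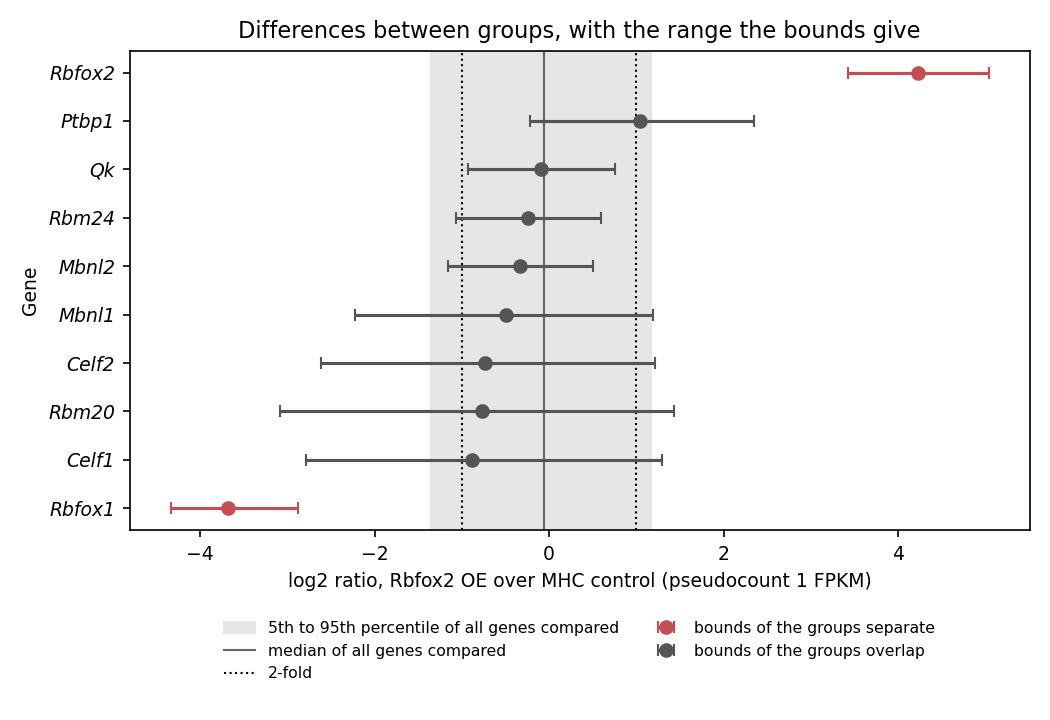
log2 of the Rbfox2 OE level over the MHC control level for each gene (pseudocount 1 FPKM), with bars from the farthest pairs of deposited bounds; the grey band spans the 5th to 95th percentile of all genes compared (-1.35 to 1.17). Rbfox1 at -3.68 and Rbfox2 at 4.23 lie outside the band with separate bounds, and the bars of the other 8 genes cross 0.

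The muscleblind genes, whose proteins are captured by repeat RNA in myotonic dystrophy, stood somewhat lower in Rbfox2 OE with overlapping bounds. Mbnl1 was at 38.6 FPKM in control cells (18.0 to 59.2) against 27.0 FPKM with Rbfox2 OE (11.8 to 42.2), a log2 ratio of -0.50. Mbnl2, the more abundant of the pair in both groups, was at 55.9 FPKM (40 to 71.8) against 44.2 FPKM (31.5 to 56.9), a log2 ratio of -0.33. From the bounds the log2 ratio of Mbnl2 could lie between -1.16 and 0.50, and that of Mbnl1 between -2.23 and 1.19. Mbnl2 over Mbnl1 was 1.45 in control cells against 1.64 with Rbfox2 OE. Mbnl3, the third muscleblind gene, was under 1 FPKM in both groups.

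The CELF genes, whose proteins oppose MBNL proteins at many exons, stood lower in Rbfox2 OE, again with overlapping bounds. Celf1 was at 29.6 FPKM in control cells (9.60 to 49.7) against 15.6 FPKM with Rbfox2 OE (6.33 to 24.9), a log2 ratio of -0.88. Celf2 was at 31.1 FPKM (12.2 to 50) against 18.4 FPKM (7.35 to 29.5), a log2 ratio of -0.73. The control value of Celf1 was 1.90-fold and that of Celf2 1.69-fold the value in Rbfox2 OE, and for both genes the bounds of the groups overlapped widely. Celf2 over Celf1 was 1.05 in control cells against 1.18 with Rbfox2 OE. The remaining relatives Celf3, Celf4, Celf5 and Celf6 were under 1 FPKM in both groups.

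The balance of the 2 families can be read within each group. Mbnl1 and Mbnl2 summed to 94.5 FPKM in control cells against 71.2 FPKM with Rbfox2 OE, and Celf1 and Celf2 to 60.8 FPKM and 34.0 FPKM. The MBNL sum over the CELF sum was 1.55 in the control (0.581 to 6.0 from the bounds) and 2.09 in Rbfox2 OE (0.797 to 7.25). Mbnl1 over Celf1 was 1.30 (0.362 to 6.17) and 1.73 (0.476 to 6.67). These ranges overlap over most of their length, so neither ratio separated the groups.

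Rbm20, whose loss causes a dilated cardiomyopathy with overlong titin, was at 68.2 FPKM in control cells (24.2 to 112) against 39.6 FPKM with Rbfox2 OE (12.3 to 67.0), a log2 ratio of -0.77. Rbm24, needed for sarcomere assembly, was at 94.5 FPKM (67.9 to 121) against 79.8 FPKM (57.0 to 103), a log2 ratio of -0.24. The level of Rbm24 was 1.39-fold that of Rbm20 in the control (0.605 to 5.0) and 2.01-fold in Rbfox2 OE (0.851 to 8.33). In the order of levels Rbm24 stood first in the control and next after Rbfox2 in Rbfox2 OE, and Rbm20 stood below Qk in both groups.

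Qk had the smallest difference of the 10 genes as deposited, but not at equal sums, where Rbm24 had a log2 ratio of -0.04. Qk was at 79.1 FPKM in control cells (56.5 to 102) against 74.2 FPKM with Rbfox2 OE (53.1 to 95.4), and its log2 ratio of -0.09 became 0.06 on rescaling without the mitochondrial and most abundant genes and 0.11 at equal sums. The bounds leave a log2 ratio between -0.93 and 0.75. The deposited locus of Qk holds 3 of its 6 annotated M21 transcripts.

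Ptbp1 was the 1 gene other than Rbfox2 with a higher value in Rbfox2 OE. It was at 16.1 FPKM in control cells (8.69 to 23.6) against 34.2 FPKM with Rbfox2 OE (20.1 to 48.3), 2.12-fold higher. The log2 ratio was 1.04, with a range of -0.22 to 2.35 from the bounds, which overlapped between 20.1 and 23.6 FPKM. It dropped below the 2-fold threshold, to 0.89, with a pseudocount of 5. The gene lies at chr10:79854427-79864771 and overlaps the protein-coding gene Plppr3, which was at 0.0590 FPKM in control cells against 0.138 FPKM with Rbfox2 OE. Its level over that of Qk was 0.204 in the control (0.0854 to 0.417 from the bounds) against 0.461 in Rbfox2 OE (0.211 to 0.911), and these ranges overlap.

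How far a gene could be resolved depended on the width of its bounds. For Rbfox2, Mbnl2, Qk and Rbm24 the upper bound lay between 27.1% and 29.5% above the value in either group. It lay 67.6% above the control value for Celf1, 64.5% for Rbm20 and 60.8% for Celf2, against a median of 38.4% over 11653 genes with estimates in both groups. With these widths the bounds of Qk, Mbnl2 and Rbm24 would separate at about 1.80-fold, 1.80-fold and 1.79-fold. Mbnl1 would need 3.35-fold, Celf2 4.08-fold, Rbm20 4.76-fold and Celf1 4.92-fold. Ptbp1 would need 2.49-fold and Rbfox1 2.59-fold. Differences of 2-fold in Celf1, Celf2, Rbm20, Mbnl1, Ptbp1 or Rbfox1 were thus not detectable by bounds in this table.

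**Figure D3:**
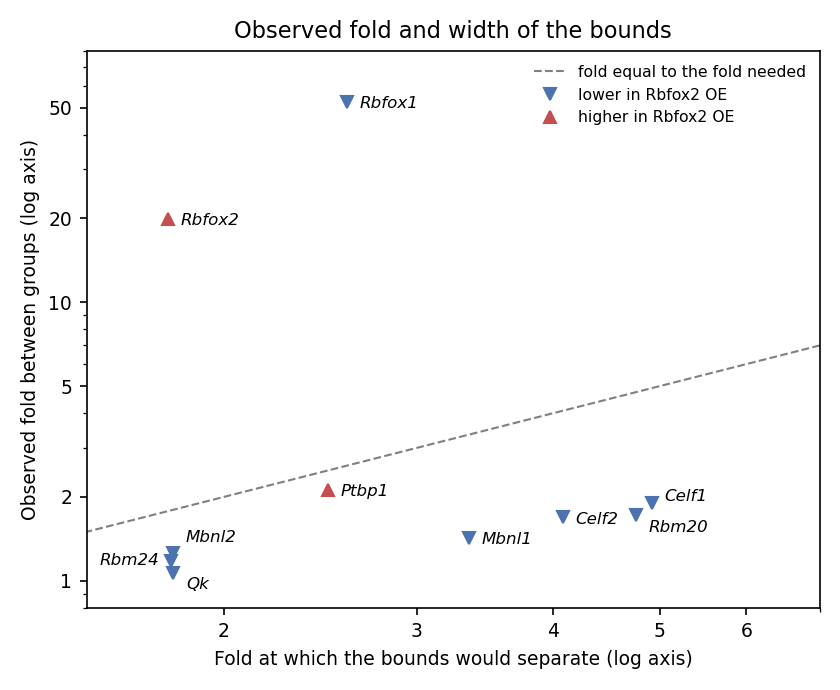
Observed fold between the groups against the fold at which the deposited bounds would separate, both on log axes, with downward triangles for genes lower and upward triangles for genes higher in Rbfox2 OE. Rbfox1 (52.3-fold) and Rbfox2 (19.9-fold) lie above the dashed line of equality, Ptbp1 (2.12 against 2.49) lies just under it, and the other 7 genes lie below it.

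The genes themselves differ in size and in how they share their loci. The spans run from 10.3 kb for Ptbp1 and 12.7 kb for Rbm24 to 970 kb for Celf2 and 1526 kb for Rbfox1, and the other 6 genes lie between 79.1 kb for Celf1 and 228 kb for Rbfox2. On GRCm38, Mbnl1 lies at chr3:60472830-60629750, Mbnl2 at chr14:120275669-120431697, Celf1 at chr2:90940382-91019497, Celf2 at chr2:6539694-7509563, Qk at chr17:10202601-10319854, Rbm20 at chr19:53677306-53867080 and Rbm24 at chr13:46418434-46431095. The genes that share a deposited locus with a member were each under 1 FPKM in both groups.

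Close relatives of the 10 genes were mostly under 1 FPKM or within 2-fold. Of 13 relatives, 7 were under 1 FPKM in both groups: Rbfox3, Mbnl3, Celf3, Celf4, Celf5, Celf6 and Khdrbs2. Among all genes compared, 17.0% were at least 2-fold apart and 16.0% had separate bounds. Of the 6 relatives compared, 1 was 2-fold higher with separate bounds, 1 was 2-fold lower with overlapping bounds and 4 were within 2-fold at a pseudocount of 1 FPKM. The first was Khdrbs1, which encodes the splicing regulator SAM68 of the same protein family as QKI, at 15.7 FPKM in control cells (10.8 to 20.5) against 33.0 FPKM with Rbfox2 OE (23.1 to 42.9). The second, named after its values were seen, was Rbm38, the paralogue of Rbm24, at 238 FPKM (134 to 342) against 110 FPKM (63.0 to 158). The PTBP1 paralogues were compared as well. Ptbp2, the neuronal form, was at 8.64 FPKM and 10.7 FPKM and Ptbp3 at 4.61 FPKM and 9.54 FPKM, with overlapping bounds. The log2 ratio of Ptbp3 was 0.91 with the pseudocount of 1 FPKM, and it passed 2-fold with a pseudocount of 0.1. Ptbp2 and Ptbp3 too were named after their values were seen.

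RBFOX proteins work within a large assembly of splicing regulators, LASR, which contains hnRNP M, hnRNP H, hnRNP C, matrin 3 and others. Of its 8 genes, 0 differed 2-fold and 0 had separate bounds, beside the 17.0% and 16.0% of all genes compared, which leaves few to be counted in a list of this size. The log2 ratios ran from -0.43 for Hnrnpm to 0.52 for Matr3, both named after their values were seen, with a median of 0.02. The bounds of Hnrnpm leave a log2 ratio between -1.66 and 0.87. Of 8 compared genes of other heart and muscle splicing regulators (Srsf1, Srsf10, Hnrnpu, Rbpms, Rbpms2, Rbm25, Luc7l3 and Raver1), 0 differed 2-fold and 0 had separate bounds, with a median of -0.01. Raver2 was under 1 FPKM in both groups.

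Levels of transcripts that these regulators act on were read from 2 lists. A gene-level value says nothing of exon choice, so only the levels are given. The counts of both lists can be set beside all genes compared. Of those, 10% were 2-fold lower in Rbfox2 OE and 9.33% were lower with separate bounds. Of 6 transcripts known to be spliced by RBM20, 3 were 2-fold lower with separate bounds and 0 were 2-fold higher, with a median log2 ratio of -1.33. The 3 were Ryr2, the ryanodine receptor (122 FPKM in control cells against 22.4 FPKM with Rbfox2 OE), Cacna1c, the L-type calcium channel pore (51.6 FPKM and 10.5 FPKM), and Ldb3, a Z-disc protein (692 FPKM and 173 FPKM). Titin, the best known RBM20 target, was at 166 FPKM (56.8 to 275) against 252 FPKM (161 to 343) and was named after its values were seen. Of 8 compared transcripts known to be mis-spliced in myotonic dystrophy, 5 were 2-fold lower, 3 of them with separate bounds, and 0 were 2-fold higher, with a median of -1.34. Counted in either direction, 5 became 6 with a pseudocount of 0.1, where Bin1 was higher, and 4 with a pseudocount of 5, without Cacna1s; Bin1 was named after its values were seen. Those with separate bounds included Cacna1s, a calcium channel pore of skeletal muscle (6.48 FPKM and 1.84 FPKM), and Ldb3, which is on both lists. Insr (27.4 FPKM and 9.27 FPKM) and Dmd (23.9 FPKM and 9.26 FPKM) were 2-fold lower with overlapping bounds and were named after their values were seen. Of the transcripts not compared, Clcn1 averaged under 1 FPKM over the groups and Atp2a1 was under 1 FPKM in both groups.

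Of the 3 genes at or beside the repeats that cause myotonic dystrophy, Dmpk was 2-fold lower with separate bounds, in the direction held by 9.33% of all genes. It stood at 298 FPKM in control cells (211 to 386) against 118 FPKM with Rbfox2 OE (81.1 to 156). Cnbp, the gene of the second form of the disease, was at 135 FPKM and 126 FPKM, and Six5, the neighbour of Dmpk, at 3.78 FPKM and 3.22 FPKM, both with overlapping bounds.

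**Figure D4:**
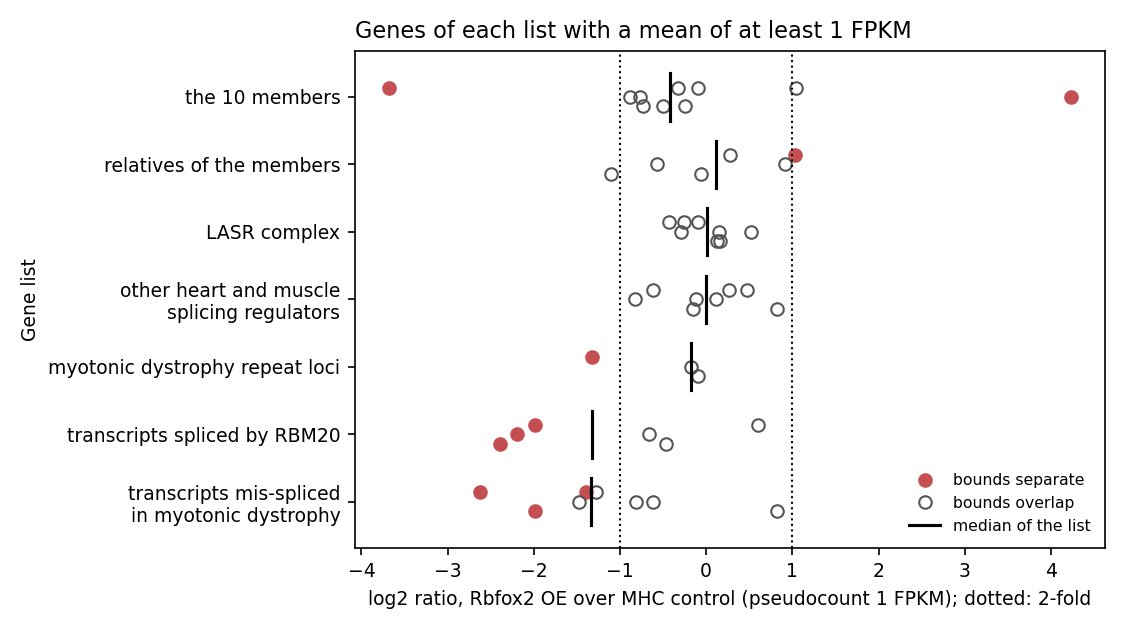
log2 of the Rbfox2 OE level over the MHC control level (pseudocount 1 FPKM) for the genes of each list with a mean of at least 1 FPKM; filled points have separate bounds, open points overlapping ones, and the black bar is the median of the list. The LASR genes lie between -0.43 and 0.52 (median 0.02), while the RBM20 transcripts (-1.33) and the myotonic dystrophy transcripts (-1.34) lie lower. The median over all genes compared, not drawn, was -0.06.

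Most of these regulators are also made by cells that are not cardiomyocytes, and markers of such cells differed between the groups. In bulk RNA, fewer cells of a type and less RNA per cell cannot be told apart. The marker counts can be set beside the 6.97% of all genes compared that were 2-fold higher in Rbfox2 OE. Macrophage and leukocyte markers summed to 110 FPKM in control cells against 389 FPKM with Rbfox2 OE, and 9 of 10 were 2-fold higher; the most abundant were Lyz2 (41.3 FPKM and 170 FPKM) and C1qa (28.3 FPKM and 71.7 FPKM). Fibroblast markers summed to 231 FPKM and 545 FPKM with 7 of 9 at 2-fold higher. The most abundant were Dcn (147 FPKM and 301 FPKM) and Col3a1 (16.2 FPKM and 74.2 FPKM). Endothelial markers summed to 282 FPKM and 493 FPKM with 2 of 10 at 2-fold higher. The most abundant were Pecam1 (43.7 FPKM and 88.0 FPKM) and Cdh5 (47.5 FPKM and 88.0 FPKM). Their log2 ratios of 0.99 and 0.88 did not pass 2-fold. Smooth muscle and pericyte markers summed to 147 FPKM and 328 FPKM with 2 of 8 at 2-fold higher. The most abundant were Acta2 (43.7 FPKM and 140 FPKM) and Rgs5 (71.9 FPKM and 127 FPKM). Rgs5, with a log2 ratio of 0.82, did not pass 2-fold. No marker of these 4 lists was listed at 0 in either group.

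Cardiomyocyte markers were present in both groups, as the labelled cell type requires. The 9 markers with an estimate summed to 56152 FPKM in control cells against 36609 FPKM with Rbfox2 OE, 3 of them were 2-fold lower, and Myl2 (24688 FPKM and 18007 FPKM) and Tnnt2 (10609 FPKM and 6917 FPKM) were the most abundant. Among all genes compared, 10% were 2-fold lower. Ryr2, Ttn and Tnnt2 are also on the transcript lists above. Myh6 was listed at 0 in both groups with the status HIDATA, which Cuffdiff gives to loci with too many fragments to estimate. The part of these markers in the values of Ptbp1, Celf1, Celf2 and the other regulators was not tested.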

How the data were processed

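Stranded libraries of polyadenylated RNA from 4 cardiomyocyte samples, 2 per group by the genotype and title labels, were sequenced on an Illumina HiSeq4000, per the labels. Per the file headers, Cuffdiff gave the deposited FPKM values and their bounds. The submitters' processing notes name bcl2fastq 2.17.1.14, Trimmomatic, STAR, Picard 1.119, HTSeq, DESeq2 and Cuffdiff 2.2.1 and the build GRCm38, without their roles. How libraries were scaled, the level of the bounds and whether counting used strand are not given in the sources used here. No depth can be had from these values, so no counting interval was given.

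Rows sharing 1 of 110 gene names were summed. The log2 ratio used a pseudocount of 1 FPKM, genes averaging 1 FPKM or more were compared, and genes were counted at 2-fold and by separate bounds. All 10 members passed this filter, Rbfox1 through the control alone and the others at levels above 1 FPKM in both groups. limma, planned for values per library, was not used because the table has 1 value per group. The range from bounds sets the lower bound of 1 group against the upper bound of the other. The fold at which bounds would separate keeps each group's relative width. Coordinates, transcripts and sequences are from GENCODE M21. The identifiers of 99.2% of rows were found there, and 99.95% of their loci overlapped the gene. No protein sequence is printed, and promoters were not examined.

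The members and gene lists were chosen with earlier results of these data known. The genes named were all 10 members, of each list the up to 4 genes with the largest log2 ratio in size among those with separate bounds, list genes under 1 FPKM in both groups by name, and the 2 most abundant markers of each cell type. A gene that this rule chose is not reported here. Alternatives covered the pseudocount, 3 scalings, the fold threshold, the filter on low values, the status and repeated names. The calculations were run with Python 3.11.15 and pandas 2.3.3 and were tested on simulated data.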

Additional observations from a re-analysis of the deposited data

How the results depend on the processing

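No paired analysis was possible because the libraries of a group were merged into 1 deposited value, and for the same reason no library could be left out. Over 6 other settings for each of the 10 genes, 58 of 60 log2 ratios stayed within the range the bounds give. The 2 that left it were those of Rbfox1, -5.30 with a pseudocount of 0.1 and -1.96 with 5. The sign changed in 2 of the 60, both for Qk. The setting for repeated names could not move any of the 10 genes, since each matched 1 row. The 3 scalings moved log2 ratios by at most 0.20, which is small beside the ranges from the bounds. Those settings were bound to stay within the ranges, so the 58 of 60 says little about stability. Rbfox2 lay between 3.92 and 4.43 and Ptbp1 between 0.89 and 1.23. A threshold of 1.5-fold counted 6 of the 10 genes, adding Celf1, Celf2 and Rbm20, and no rescaling changed which genes passed 2-fold or how many had separate bounds. With a pseudocount of 5, 2 of the 10 passed 2-fold, without Ptbp1. Among relatives of the members a pseudocount of 0.1 put 3 genes at 2-fold, adding Ptbp3, and a pseudocount of 5 left 1, Rbm38. Scalings for the lists were chosen after seeing the data: at equal sums 1 of the other heart and muscle splicing regulators, Hnrnpu, passed 2-fold. The cause was not tested. Depth is unknown, so what it limits cannot be given.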
